A study of Homo sapiens with 9 samples.

Results

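The 6 genes that encode the chains of type IV collagen, COL4A1 to COL4A6, were followed in MDA-MB-231, a human breast adenocarcinoma line. They were found by symbol in all 9 count files, as 6 of 26364 genes, and all 6 were among the 14738 genes with enough reads to be tested. The line had been infected with pLVX lentiviruses of 3 kinds, with 3 libraries for each. MEL-18 T334A cells carried a MEL-18 in which a threonine described as a phosphorylation site is replaced by alanine, MEL-18 WT cells carried the wild-type protein, and control cells carried the empty vector. No group is labelled as lacking the cells' own MEL-18 gene, and all were grown for 48 h in DMEM with 10% FBS, without further treatment. PCGF2 encodes MEL-18, which belongs to PRC1, a chromatin complex that holds genes repressed. The labels do not say whether a line was a pool or 1 clone, nor whether replicates came from separate infections, so a construct and its line cannot be told apart. The family was taken up after low COL4A5 and COL4A6 counts had been seen in MEL-18 T334A cells in an earlier analysis of the same counts. The values of MEL-18 T334A against the vector, and against MEL-18 WT, are therefore given as a description, with fold changes and standard errors and no p-value, and nothing is supported with them. For these genes only the test of MEL-18 WT against the vector is reported.

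Type IV collagen is the collagen of basement membranes, the thin sheets of matrix that lie under epithelia, including the mammary epithelium, and around blood vessels. Its chains assemble inside the cell into trimers, and the trimers join into a network outside it. COL4A1 and COL4A2 make the trimer found in nearly all basement membranes. COL4A3, COL4A4 and COL4A5 together make the network of the kidney glomerulus, whose loss causes Alport syndrome, and COL4A5 with COL4A6 makes a network known from skin, smooth muscle and mammary basement membranes. The genes lie in head-to-head pairs, each pair on its own chromosome and read in opposite directions from a shared stretch of promoter.

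These promoter stretches are printed because the members of a pair are read from the same DNA. All 6 genes were matched in the RefSeq promoter table (GRCh38.p14), which gives COL4A6 a pair of starts. Between the starts lie 126 bases for COL4A1 and COL4A2 on chromosome 13, 418 for COL4A4 and COL4A3 on chromosome 2, and 379 for COL4A5 and the outer start of COL4A6 on chromosome X. The inner start of COL4A6 lies farther off, with 1415 bases between it and the start of COL4A5. Capitals mark the GC box, spelled GGGCGG, the CCAAT box, whose name gives its letters, and the TATA box, spelled TATAAA, each searched on both strands.
COL4A5, 250 bases before its start, chrX:108439588-108439837, plus strand: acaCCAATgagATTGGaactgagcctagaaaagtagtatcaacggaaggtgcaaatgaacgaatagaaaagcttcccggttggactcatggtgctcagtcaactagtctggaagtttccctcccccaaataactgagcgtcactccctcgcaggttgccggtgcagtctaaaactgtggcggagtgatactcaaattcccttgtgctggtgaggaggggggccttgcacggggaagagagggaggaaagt
COL4A6, 250 bases before its outer start, chrX:108439459-108439708, minus strand: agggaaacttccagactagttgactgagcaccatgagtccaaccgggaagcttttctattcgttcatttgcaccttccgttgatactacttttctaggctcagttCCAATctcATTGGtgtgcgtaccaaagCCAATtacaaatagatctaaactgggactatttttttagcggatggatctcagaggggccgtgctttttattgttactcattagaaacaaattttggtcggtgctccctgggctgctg
COL4A6, 250 bases before its inner start, chrX:108438423-108438672, minus strand: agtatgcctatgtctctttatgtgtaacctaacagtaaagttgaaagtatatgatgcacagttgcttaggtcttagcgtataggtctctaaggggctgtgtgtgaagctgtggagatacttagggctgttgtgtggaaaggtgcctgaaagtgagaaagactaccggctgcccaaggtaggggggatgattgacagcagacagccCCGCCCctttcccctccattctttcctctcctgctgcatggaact
COL4A1 and COL4A2, the stretch between both starts, chr13:110307158-110307283, plus strand: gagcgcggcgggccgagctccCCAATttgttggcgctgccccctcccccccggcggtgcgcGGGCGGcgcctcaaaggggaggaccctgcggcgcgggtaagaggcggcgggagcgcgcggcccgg
COL4A4, 250 bases before its start, chr2:227164206-227164455, minus strand: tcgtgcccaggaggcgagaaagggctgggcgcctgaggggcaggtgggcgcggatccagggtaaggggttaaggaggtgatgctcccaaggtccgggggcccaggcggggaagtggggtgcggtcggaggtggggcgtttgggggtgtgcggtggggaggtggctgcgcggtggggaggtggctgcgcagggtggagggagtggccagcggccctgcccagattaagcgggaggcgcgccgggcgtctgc
COL4A3, 250 bases before its start, chr2:227164374-227164623, plus strand: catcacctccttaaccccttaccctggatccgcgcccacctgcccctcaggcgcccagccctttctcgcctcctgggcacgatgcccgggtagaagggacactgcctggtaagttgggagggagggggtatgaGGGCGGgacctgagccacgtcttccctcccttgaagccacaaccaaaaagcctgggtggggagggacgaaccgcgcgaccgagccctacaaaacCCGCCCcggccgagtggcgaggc

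The COL4A5 and outer COL4A6 stretches read the same 121 bases from opposite strands, and those of COL4A4 and COL4A3 share 82 bases. In windows of 300 bases, from 250 before to 50 after a start, the pairs differed in their content of CG dinucleotides. The COL4A5 window held 8 CG dinucleotides and the COL4A6 windows 7 (outer start) and 5 (inner start), against a median of 14 over 35116 windows of the same length. The windows of COL4A1 and COL4A2 held 45 each, more than 96.5% of all windows held, and those of COL4A3 and COL4A4 held 24 and 29. G and C made up 49.3% of the COL4A5 window and 43.7% of the outer COL4A6 window, against 76.7% for COL4A1, 77.7% for COL4A2, 67.7% for COL4A3 and 74% for COL4A4. CCAAT was found in the windows of COL4A5, COL4A6 (outer start), COL4A1 and COL4A2, and 34.6% of all windows hold it. GGGCGG was found in those of COL4A1, COL4A2, COL4A3 and the inner start of COL4A6, and 45% of all windows hold it. TATAAA, held by 11.5% of windows, was in none of the members' windows. These matches describe letters and say nothing of binding.

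The libraries held 31643722 to 37005302 counts. In CPM, which are counts scaled to library size, PCGF2 stood at 1420 ± 30.9 (SD, n = 3) in MEL-18 T334A, 1286 ± 6.55 in MEL-18 WT and 22.7 ± 0.878 in vector cells, and reads of the transgene and the cells' own gene were not told apart. The line is labelled epithelial. Of 5 epithelial markers, 4 averaged at least 1 CPM in every group, while E-cadherin, CDH1, never passed 0.274 CPM. Of 3 mesenchymal markers, 2 averaged at least 1 CPM in every group. These were vimentin, VIM, at 1428 to 1572 CPM and fibronectin, FN1, at 223 to 291 CPM, while N-cadherin, CDH2, never passed 0.736 CPM. Of the other cell types that make type IV collagen, the 5 endothelial markers summed to 2.42 to 3.10 CPM in MEL-18 T334A, 2.42 to 2.82 in MEL-18 WT and 3.16 to 3.599 in vector libraries, and 1 of the 5 averaged at least 1 CPM. The 6 fibroblast markers summed to 19.2 to 25.8 CPM in MEL-18 T334A, 18.9 to 21.4 in MEL-18 WT and 15.4 to 16.2 in vector libraries, with COL1A1 and PDGFRB averaging 1 CPM or more and decorin, DCN, at 1 count at most. The part of these markers in the results was not tested.

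COL4A5 and COL4A6, the X-linked pair, were both low in MEL-18 T334A cells, and in MEL-18 WT cells they were near or slightly above the vector. COL4A5 encodes a chain of both the glomerular and the skin-type networks. It had 1.86, 2.29 and 2.23 CPM in MEL-18 T334A libraries, 9.20, 8.93 and 9.42 CPM in MEL-18 WT libraries and 8.54, 8.33 and 7.97 CPM in vector libraries. The 3 MEL-18 T334A libraries lay far below all others, and the MEL-18 WT libraries lay just above the vector libraries without overlap. In MEL-18 T334A cells COL4A5 stood at 25.8% of the vector level (220 counts against 810 in 3 libraries each), with a log2 fold change of -1.95 ± 0.10 (SE). Against MEL-18 WT the log2 fold change was -2.10 ± 0.10. In MEL-18 WT against the vector it was 0.15 ± 0.07, which did not pass the test (edgeR quasi-likelihood test, adjusted p = 0.139, and 0.0935 to 0.404 over the alternatives). In whole cultures, fewer cells that make a transcript and less of it per cell cannot be told apart.

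COL4A6, the partner of COL4A5, was a rare transcript in all groups. It had 3, 6 and 3 counts in MEL-18 T334A libraries, 33, 26 and 18 in MEL-18 WT libraries and 22, 17 and 23 in vector libraries. The MEL-18 T334A libraries again lay below all others, while MEL-18 WT and vector libraries overlapped. All MEL-18 T334A libraries were under the low-count limit of 0.294 CPM, so that the gene entered the test only through the groups in which it was higher. Its summed counts were 12 in MEL-18 T334A and 62 in vector libraries, a ratio of 0.184, and 12 against 77 in MEL-18 WT, a ratio of 0.160. The fitted log2 fold change was -2.41 ± 0.39 against the vector and -2.61 ± 0.37 against MEL-18 WT. The MEL-18 WT to vector ratio was 1.148 (0.811 to 1.63), and the gene was not called there (log2 fold change 0.20 ± 0.25, adjusted p = 0.617).

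**Figure D1:**
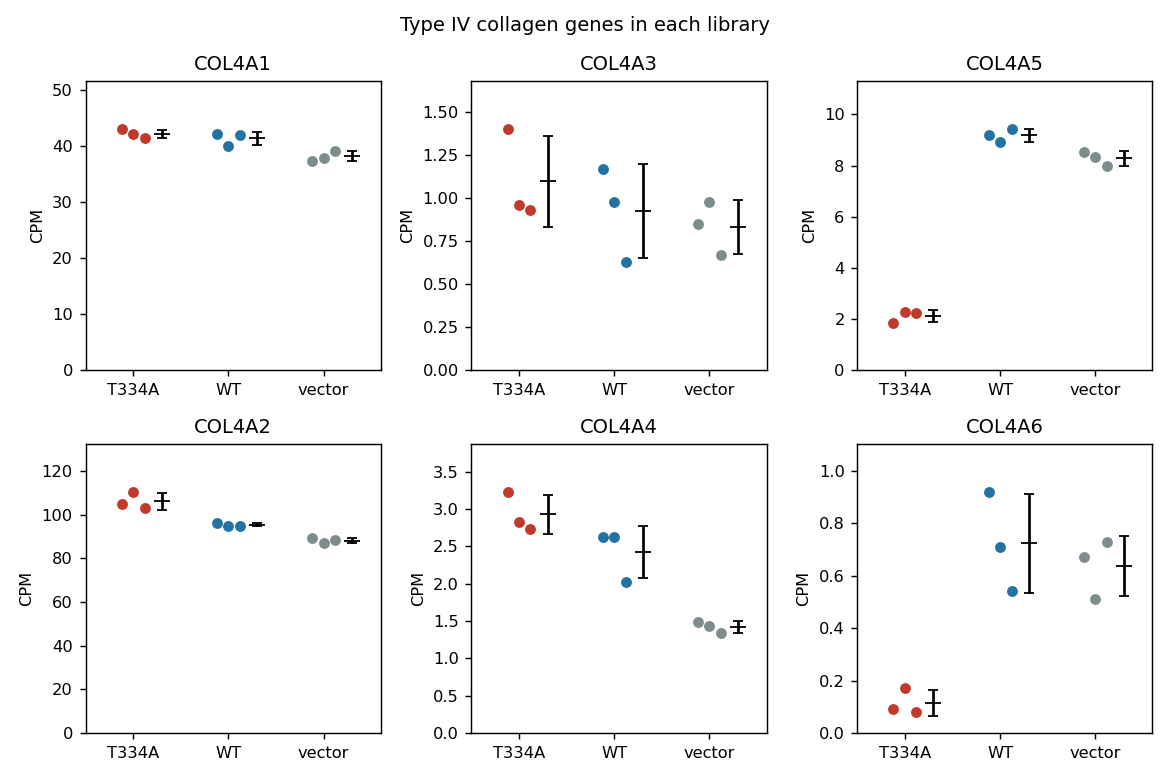
CPM of each type IV collagen gene (vertical axes, each from 0) in the 9 libraries, by group (horizontal axes); points are libraries and bars the mean ± SD of 3. COL4A5 lay between 1.86 and 2.29 CPM in MEL-18 T334A and between 7.97 and 9.42 CPM in the other groups, while COL4A4 lay lowest in vector libraries.

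COL4A1 and COL4A2, which make the widespread trimer, were slightly higher with both MEL-18 constructs. COL4A1 had 43.0, 42.1 and 41.5 CPM in MEL-18 T334A libraries, 42.2, 40.0 and 42.0 CPM in MEL-18 WT libraries and 37.4, 37.9 and 39.2 CPM in vector libraries. Both MEL-18 groups lay above the vector libraries and overlapped each other. COL4A1 rose in MEL-18 WT against the vector by 0.12 ± 0.04 on the log2 scale (1.08-fold, edgeR adjusted p = 0.0239). That call was lost with DESeq2 (adjusted p = 0.0956) and when any of 4 libraries was left out, vector replicate 1 (0.0870) or 2 (0.0663) or MEL-18 WT replicate 1 (0.103) or 3 (0.0799), while the change kept its sign in all 14 alternatives (adjusted p = 0.0111 to 0.103). In MEL-18 T334A against the vector the log2 fold change was 0.14 ± 0.04, and against MEL-18 WT it was 0.03 ± 0.04.

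COL4A2 was the most abundant member. It had 105.1, 110.4 and 102.9 CPM in MEL-18 T334A libraries, 96.1, 94.9 and 94.9 CPM in MEL-18 WT libraries and 89.1, 87.1 and 88.2 CPM in vector libraries. The groups formed 3 separate steps with no overlap. COL4A2 rose in MEL-18 WT against the vector by 0.11 ± 0.03 (1.08-fold, edgeR adjusted p = 0.00828, and 0.00200 to 0.0399 over 14 alternatives). The log2 fold change in MEL-18 T334A was 0.27 ± 0.03 against the vector and 0.15 ± 0.03 against MEL-18 WT. The antisense gene COL4A2-AS1, which overlaps COL4A2, held 1 to 8 counts a library, beside at least 2769 counts of COL4A2.

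COL4A4 and COL4A3, partners in the glomerular network, were both rare, and COL4A4 was higher with both constructs. COL4A4 had 3.23, 2.83 and 2.73 CPM in MEL-18 T334A libraries, 2.63, 2.63 and 2.02 CPM in MEL-18 WT libraries and 1.49, 1.43 and 1.34 CPM in vector libraries. The groups did not overlap. COL4A4 rose in MEL-18 WT against the vector by 0.78 ± 0.15 on the log2 scale (258 counts against 139, ratio 1.72, exact 95% interval 1.39 to 2.12, edgeR adjusted p = 3.02e-04, and 7.38e-06 to 0.00313 over 14 alternatives). In MEL-18 T334A its log2 fold change was 1.04 ± 0.15 against the vector and 0.26 ± 0.13 against MEL-18 WT. The span of COL4A4 overlaps that of RHBDD1 (670 to 812 counts a library), and since the strand setting of the counting is not given, reads of the overlap may have been lost or shared. RHBDD1 was called in none of the 3 comparisons.

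COL4A3 had 45, 34 and 33 counts in MEL-18 T334A libraries, 42, 36 and 21 in MEL-18 WT libraries and 28, 33 and 21 in vector libraries. All groups overlapped. In MEL-18 WT against the vector the ratio of summed counts was 1.12 (99 against 82, exact 95% interval 0.824 to 1.51) and the gene was not called (edgeR log2 fold change 0.16 ± 0.24, adjusted p = 0.683). In MEL-18 T334A the ratio to the vector was 1.30 (112 counts against 82). These counts could not have shown a change as small as that of COL4A1.

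In MEL-18 WT against the vector, 3 of the 6 genes were called, all higher, where 28.8% of tested genes were called, 14.4% higher and 14.4% lower. The libraries of MEL-18 WT and vector did not overlap for 4 of the 6, where 42.7% of tested genes did not overlap. The median log2 fold change of the 6 genes in this comparison was 0.15, and that of all tested genes was -0.0017. For MEL-18 T334A no count of called members is given, since its values chose the family. With library totals in place of TMM scaling, the share of higher genes among all calls was 64.0% rather than 51.1% in MEL-18 T334A against the vector and 60.1% rather than 50.1% in MEL-18 WT against the vector. The comparisons with the vector share its 3 libraries, so their values are not independent.

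**Figure D2:**
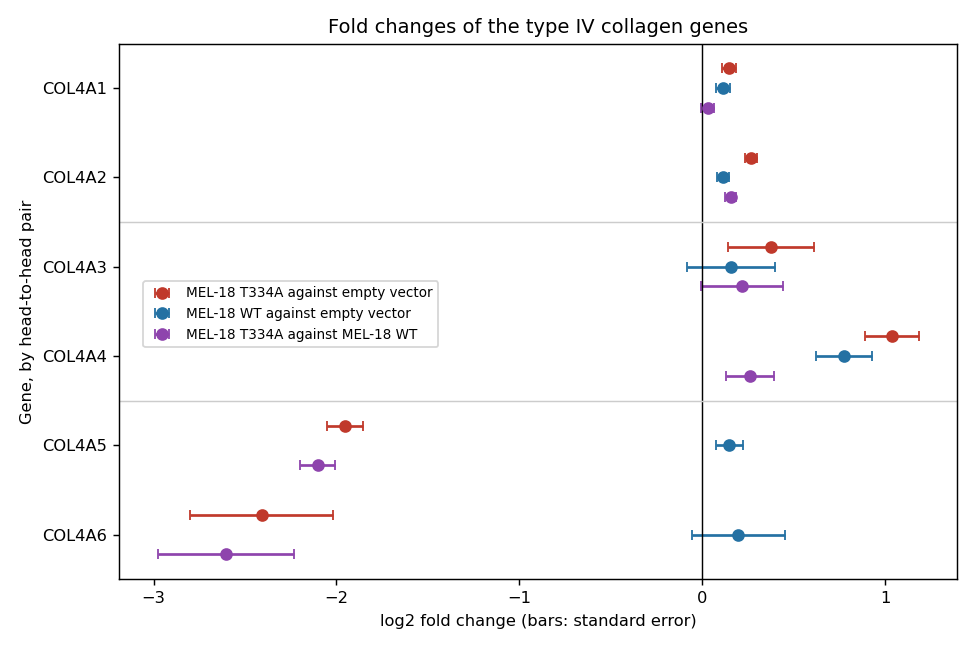
Log2 fold change ± SE (horizontal axis) of the 6 genes (vertical axis, grouped by head-to-head pair) in the 3 comparisons. COL4A5 and COL4A6 lay at -1.95 and -2.41 in MEL-18 T334A against the vector, and the other 4 genes at 0.14 to 1.04.

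Levels of different genes were compared as CPM per kilobase of the principal GENCODE transcript. COL4A2 stood at 16.3 ± 0.598 CPM per kilobase in MEL-18 T334A, 14.7 ± 0.107 in MEL-18 WT and 13.6 ± 0.156 in vector cells (SD, n = 3 each), and COL4A1 at 6.38 ± 0.113 in MEL-18 T334A, 6.25 ± 0.185 in MEL-18 WT and 5.77 ± 0.135 in vector cells. COL4A5 came next, at 0.331 ± 0.0361 in MEL-18 T334A, 1.43 ± 0.0380 in MEL-18 WT and 1.29 ± 0.0450 in vector cells. In MEL-18 T334A cells COL4A4, at 0.292 ± 0.0261, overlapped with COL4A5, whereas in the other groups COL4A5 stood well above it, with COL4A4 at 0.242 ± 0.0354 in MEL-18 WT and 0.142 ± 0.00781 in vector cells. COL4A3 and COL4A6 had overlapping levels in MEL-18 WT (0.115 ± 0.0339 and 0.110 ± 0.0291) and vector cells (0.103 ± 0.0194 and 0.0969 ± 0.0179). In MEL-18 T334A cells COL4A3 stood at 0.135 ± 0.0322 and COL4A6 at 0.0176 ± 0.00714, the lowest of the 6.

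Of the summed per-length level of the family, COL4A1 and COL4A2 made up 96.7% ± 0.0839 in MEL-18 T334A, 91.7% ± 0.267 in MEL-18 WT and 92.2% ± 0.295 in vector cells. COL4A5 and COL4A6 made up 1.48% ± 0.164 in MEL-18 T334A, 6.74% ± 0.0860 in MEL-18 WT and 6.60% ± 0.190 in vector cells. COL4A3 and COL4A4 made up 1.82% ± 0.247 in MEL-18 T334A, 1.56% ± 0.293 in MEL-18 WT and 1.17% ± 0.126 in vector cells. In MEL-18 T334A cells the X-linked pair took a smaller share than the COL4A3 and COL4A4 pair in each of the 3 libraries (1.29% to 1.58% against 1.66% to 2.11%). In each library of the other groups the X-linked pair took the larger share. The MEL-18 T334A shares follow in part from the low COL4A5 and COL4A6 values for which the family was taken up. The family as a whole stood at 154.6 ± 4.18 CPM in MEL-18 T334A, 149.98 ± 2.08 CPM in MEL-18 WT cells and 137.5 ± 1.05 CPM in vector cells.

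The ratio of counts between partners asked whether a pair moved together, free of depth and scaling. COL4A2 over COL4A1 was 2.44, 2.63 and 2.48 in MEL-18 T334A libraries, 2.28, 2.38 and 2.26 in MEL-18 WT libraries and 2.38, 2.30 and 2.25 in vector libraries. MEL-18 WT and vector ratios overlapped (mean log2 difference -0.0028, exact two-sided permutation test p = 0.9), and the MEL-18 T334A ratios lay above both. COL4A4 over COL4A3 was 2.31, 2.94 and 2.94 in MEL-18 T334A libraries, 2.24, 2.69 and 3.19 in MEL-18 WT libraries and 1.75, 1.45 and 2 in vector libraries. All MEL-18 WT ratios lay above the vector ratios, a mean log2 difference of 0.64, and p = 0.1 in the exact two-sided permutation test is the smallest that 3 against 3 allows (0.3 adjusted over the 3 pairs). COL4A6 over COL4A5 was 0.05, 0.0741 and 0.0380 in MEL-18 T334A libraries, 0.1003, 0.0790 and 0.0575 in MEL-18 WT libraries and 0.0786, 0.0607 and 0.0920 in vector libraries. These ratios overlapped between all groups (MEL-18 WT against the vector, exact permutation p = 0.9), at 3 to 33 counts of COL4A6. Both genes were taken up for low MEL-18 T334A counts, so the overlap of their MEL-18 T334A ratios with the others supports nothing.

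**Figure D3:**
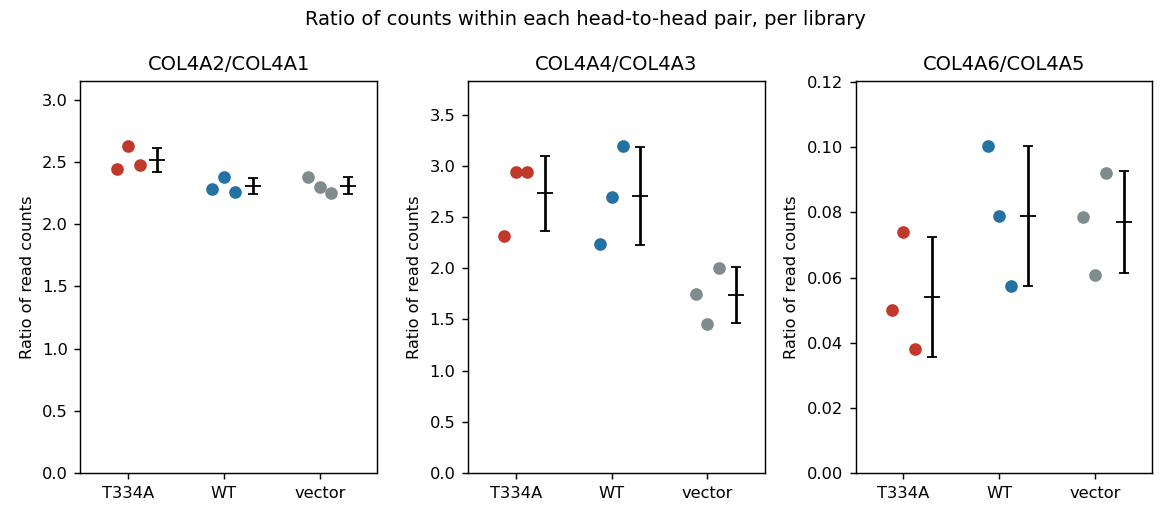
Ratio of read counts (vertical axes, from 0) of the partners in each head-to-head pair, per library and group (horizontal axes), with mean ± SD of 3. The COL4A6 to COL4A5 ratios overlapped in all groups, while COL4A4 over COL4A3 was lowest in the vector libraries, at 1.45 to 2. COL4A5 and COL4A6 were taken up for low MEL-18 T334A counts, so the overlap of their MEL-18 T334A ratios supports nothing.

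The tested genes on either side of each pair give the setting of that pair. Of the 20 nearest tested genes around COL4A5 and COL4A6, 9 were called lower and 3 higher in MEL-18 T334A against the vector, with a median log2 fold change of -0.12. Of all tested genes 45.9% were called in that comparison, 22.5% lower and 23.4% higher. The nearest on each side, ATG4A, a protease of autophagy, and NXT2, a factor of RNA export, stood at -0.18 and -0.24. CHRDL1, a secreted inhibitor of BMP signalling, was the lowest of the 20 at -1.52, with 8.32 CPM in MEL-18 T334A libraries, 27.2 CPM in MEL-18 WT libraries and 23.8 CPM in vector libraries. FRMPD3, named like CHRDL1 after the values were seen, was the highest at 1.36. In MEL-18 WT against the vector the 20 neighbours had a median of 0.03, with 5 higher and 3 lower, where 14.4% of tested genes were called in each direction. Around COL4A1 and COL4A2 the median was -0.05 in MEL-18 T334A and 0.05 in MEL-18 WT against the vector, with 3 and 5 of 20 higher and 3 and 2 lower. IRS2, an insulin receptor substrate next to the pair, stood at -0.01 and -0.13, and RAB20, on the other side, at 0.19 and 0.18. Around COL4A3 and COL4A4 the medians were -0.04 and 0.06, with 4 and 6 of 20 higher and 4 and 1 lower. There the nearest genes, RHBDD1 and MFF, a factor of mitochondrial fission, stood at 0.10 and -0.01 in MEL-18 T334A and at 0.07 and 0.02 in MEL-18 WT. The part of a shift of neighbours in the members' changes was not tested.

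**Figure D4:**
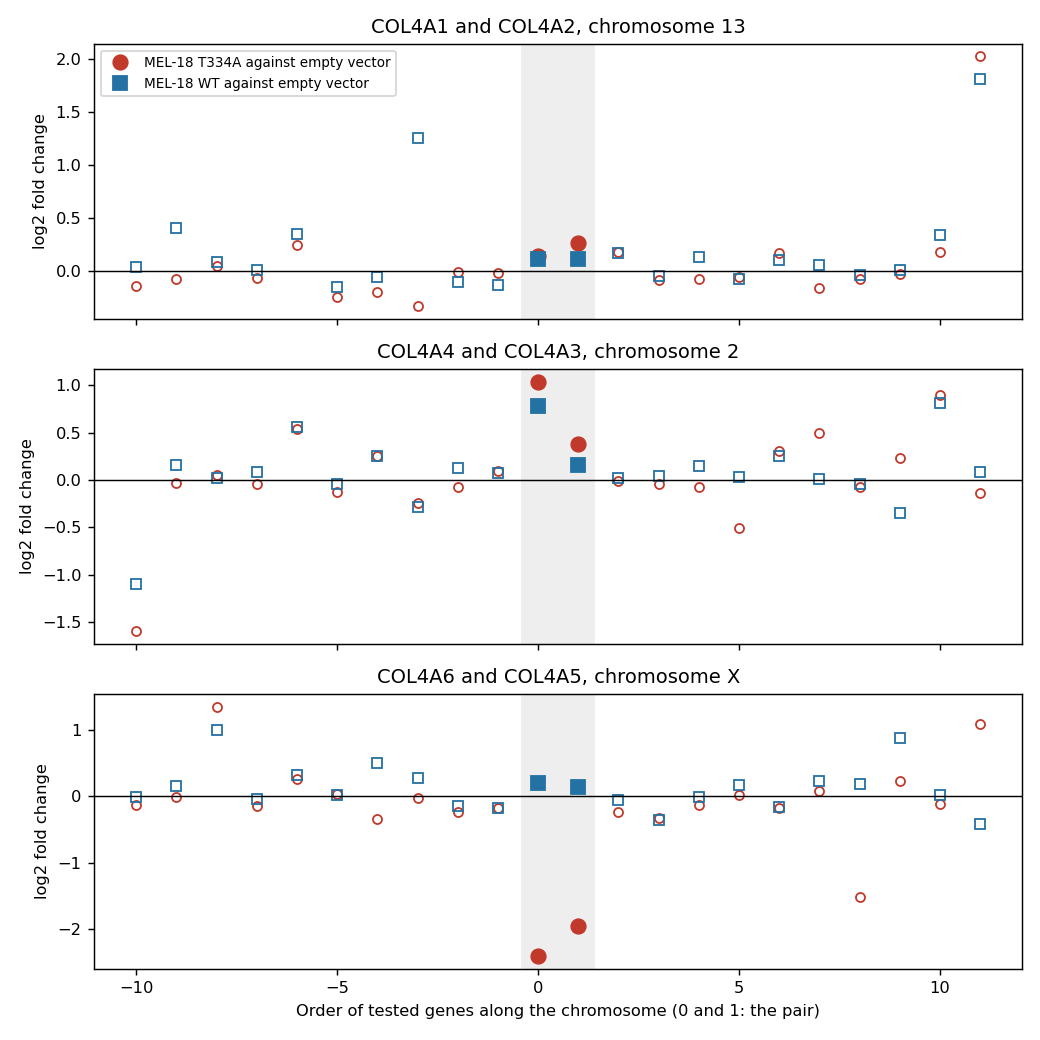
Log2 fold change (vertical axes) of each pair (filled, shaded band) and of the 10 nearest tested genes on each side (open), in their order along the chromosome (horizontal axis). COL4A5 and COL4A6 lay below all 20 neighbours in MEL-18 T334A against the vector, of which CHRDL1 was the lowest at -1.52. The pair was taken up for its low MEL-18 T334A values, so its place below the neighbours follows from that choice and supports nothing.

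Likeness of pattern was measured as the root mean square difference of centred log2 CPM over the 9 libraries, among 11948 genes averaging 2 CPM or more. For COL4A6 the nearest gene was its partner COL4A5, at 0.268, but both were noted for low MEL-18 T334A values, which enter this distance, so their likeness follows from that choice and supports nothing. For COL4A5 the nearest were RASGRF1, a Ras exchange factor, at 0.216, and CHRDL1 at 0.228, followed by PPP2R2C, a phosphatase subunit, GDF15, a stress-induced cytokine, and LOC100505817, at 0.287 to 0.306. Over all tested genes, rare ones included, COL4A6 ranked 7th for COL4A5. The low MEL-18 T334A values for which COL4A5 was noted enter these distances too, so the nearness of these genes to COL4A5 supports nothing. RASGRF1 averaged 1.797 CPM in MEL-18 T334A libraries, 6.01 CPM in MEL-18 WT libraries and 5.49 CPM in vector cells. COL4A1 and COL4A2 lay 0.0691 apart, and many genes lay closer to each of them. Over all tested genes COL4A2 ranked 1374th for COL4A1, and COL4A1 ranked 647th for COL4A2. Among the 11948 genes, the nearest to COL4A1 was PTPN21 at 0.0170, and the nearest to COL4A2 was DDX59 at 0.0211. COL4A3 and COL4A4 lay 0.346 apart. Over all tested genes COL4A4 ranked 8557th for COL4A3, and COL4A3 ranked 1328th for COL4A4. COL4A4 was nearest to PBX4, at 0.115, and COL4A3 to CXXC4, at 0.206. Distances are not comparable between rare and abundant genes, since few counts spread more between libraries.

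Genes that build, finish, hold or cut the type IV network were followed in 6 lists with 83 names, of which 70 were tested. In MEL-18 T334A against the vector 23 rose and 18 fell, with a median log2 fold change of 0.02. Of all tested genes 45.9% were called there, 23.4% higher and 22.5% lower. In MEL-18 WT against the vector 16 rose and 19 fell, with a median of -0.03, where 28.8% of all tested genes were called, 14.4% in each direction. In MEL-18 T334A against MEL-18 WT 19 were higher and 16 lower, with a median of -0.02, where 40.9% of all tested genes were called, 21% higher and 20% lower. The medians of all tested genes were -0.0022, -0.0017 and -0.0033 in these comparisons, and no test of the lists was made. The same shares of all tested genes apply to the counts of each list below. Apart from COL4A3BP, the genes named below were picked among called genes by the size of their change. The lists were chosen with earlier results of these data known. Adjusted p-values of the named genes are therefore a description and support nothing further.

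Of 10 genes of laminins, the other sheet-forming proteins of basement membranes, 5 rose and 2 fell in MEL-18 T334A against the vector, and 3 rose and 2 fell in MEL-18 WT. LAMA3, a chain of epithelial laminin, rose to 3.96 ± 0.527 CPM in MEL-18 T334A and 5.24 ± 0.926 CPM in MEL-18 WT, against 1.81 ± 0.115 CPM in vector cells, by 1.12 ± 0.15 and 1.52 ± 0.14 on the log2 scale (edgeR adjusted p = 7.91e-07 and 3.56e-09). LAMA4, a chain of vessel laminins, stood at 11.2 ± 0.583 CPM in MEL-18 T334A libraries, 18.8 ± 1.44 CPM in MEL-18 WT libraries and 6.72 ± 0.247 CPM in vector cells. It rose by 0.74 ± 0.08 in MEL-18 T334A (edgeR adjusted p = 1.47e-08) and by 1.48 ± 0.07 in MEL-18 WT (adjusted p = 5.73e-15) against the vector. LAMA5, an abundant epithelial chain, fell by 0.19 ± 0.04 in both. LAMB3, the partner of LAMA3, rose by 0.09 ± 0.03 in MEL-18 T334A and fell by 0.16 ± 0.03 in MEL-18 WT against the vector. Of 16 other basement membrane genes, 5 rose and 2 fell in MEL-18 T334A, and 5 rose and 4 fell in MEL-18 WT. FRAS1, which helps to anchor epithelium to mesenchyme, rose by 0.48 ± 0.08 in MEL-18 T334A and by 0.74 ± 0.08 in MEL-18 WT, and fibulin FBLN1 fell by 0.69 ± 0.12 in MEL-18 T334A and by 0.66 ± 0.12 in MEL-18 WT. HMCN1, a hemicentin, rose by 0.47 ± 0.08 in MEL-18 T334A and by 0.21 ± 0.08 in MEL-18 WT (edgeR adjusted p = 0.0483 in MEL-18 WT). The MEL-18 WT call of HMCN1 was not followed over the alternatives. COL7A1, the anchoring fibril collagen, stood at 0.23 ± 0.13 in MEL-18 T334A without a call (adjusted p = 0.164) and rose by 0.40 ± 0.13 in MEL-18 WT (adjusted p = 0.0228, lost with DESeq2 at 0.0916 and without vector replicate 2 at 0.0845 or MEL-18 WT replicate 1 at 0.210). The perlecan gene HSPG2 was higher in MEL-18 T334A than in MEL-18 WT, at 150.2 ± 8.16 against 124.5 ± 2.01 CPM (log2 fold change 0.27 ± 0.04). Vector cells had 148.4 ± 10.1 CPM. Against them HSPG2 fell by 0.25 ± 0.04 in MEL-18 WT and was not called in MEL-18 T334A, at 0.02 ± 0.04.

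Of 19 enzymes and chaperones that modify, fold and export collagen chains, 4 rose and 9 fell in MEL-18 T334A against the vector, and 4 rose and 5 fell in MEL-18 WT. PLOD2, a lysyl hydroxylase, fell to 117.6 ± 1.67 CPM in MEL-18 T334A, against 179.9 ± 7.81 CPM in vector cells (-0.61 ± 0.04, edgeR adjusted p = 2.09e-13), and fell by 0.13 ± 0.04 in MEL-18 WT. COLGALT2, which adds galactose to hydroxylysine, rose by 0.68 ± 0.07 in MEL-18 T334A and by 0.50 ± 0.07 in MEL-18 WT. P4HA2, a prolyl hydroxylase subunit, rose by 0.40 ± 0.04 in MEL-18 T334A and by 0.23 ± 0.04 in MEL-18 WT. P3H3, a prolyl hydroxylase family member, rose by 0.46 ± 0.06 in MEL-18 T334A and stood at -0.04 ± 0.06 in MEL-18 WT, where it was not called. P3H2, a prolyl hydroxylase, fell by 0.29 ± 0.03 in MEL-18 T334A, and in MEL-18 WT it stood at -0.01 ± 0.03 without a call. PLOD3, a lysyl hydroxylase, was not called in MEL-18 T334A, at -0.01 ± 0.03, and fell by 0.22 ± 0.03 in MEL-18 WT. Of 8 genes listed with cross-linking, 4 rose and 1 fell in MEL-18 T334A, and 2 rose and 3 fell in MEL-18 WT. The list holds COL4A3BP, a ceramide transfer protein and not a cross-linking enzyme, which was called in neither comparison with the vector. In MEL-18 T334A against MEL-18 WT COL4A3BP was called higher, by 0.13 ± 0.04 (edgeR adjusted p = 0.0164). Peroxidasin, PXDN, which joins type IV trimers through a sulfilimine bond, fell in both, to 436.6 ± 9.85 CPM in MEL-18 T334A and 441.6 ± 16.7 CPM in MEL-18 WT, against 566.8 ± 26.3 CPM in vector cells (log2 fold change -0.38 ± 0.03 and -0.36 ± 0.03, adjusted p = 5.49e-10 and 2.66e-09). LOXL2, a lysyl oxidase that acts on type IV collagen, stood at 205.3 ± 8.18 CPM in MEL-18 T334A libraries, 146.02 ± 2.25 CPM in MEL-18 WT libraries and 171.7 ± 1.398 CPM in vector cells, and was 0.49 ± 0.03 higher in MEL-18 T334A than in MEL-18 WT (adjusted p = 9.80e-13). LOXL4 rose by 1.06 ± 0.14 in MEL-18 WT and by 0.45 ± 0.15 in MEL-18 T334A, where the call was lost with DESeq2 (adjusted p = 0.0562) and without vector replicate 1 (0.0927) or MEL-18 T334A replicate 2 (0.143). LOXL1 rose by 0.38 ± 0.08 in MEL-18 T334A and fell by 0.22 ± 0.08 in MEL-18 WT (edgeR adjusted p = 0.0411 in MEL-18 WT). The MEL-18 WT call of LOXL1 was not followed over the alternatives.

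Among 7 collagen receptors, 3 rose and 2 fell in MEL-18 T334A against the vector, and 1 rose and 2 fell in MEL-18 WT. DDR1, a receptor tyrosine kinase for collagens, rose by 0.57 ± 0.05 in MEL-18 T334A and by 0.34 ± 0.05 in MEL-18 WT. The integrin subunit ITGA2 rose by 0.34 ± 0.05 in MEL-18 T334A, with 207.8 ± 19.7 CPM against 164.4 ± 10.1 CPM in vector cells, and was not called in MEL-18 WT, at 0.09 ± 0.05. ITGA10, another collagen-binding integrin subunit, fell by 0.48 ± 0.08 in MEL-18 T334A and by 0.29 ± 0.08 in MEL-18 WT, where the call was lost without MEL-18 WT replicate 2 (adjusted p = 0.0713). ADGRG6, an adhesion receptor that binds type IV collagen, fell by 0.25 ± 0.03 in MEL-18 T334A and by 0.14 ± 0.03 in MEL-18 WT. Of 10 proteases and inhibitors, 2 rose and 2 fell in MEL-18 T334A, and 1 rose and 3 fell in MEL-18 WT. TIMP3, a matrix-bound inhibitor of metalloproteases, fell to 71.1 ± 7.25 CPM in MEL-18 T334A and 83.8 ± 5.01 CPM in MEL-18 WT, against 116.9 ± 6.71 CPM in vector cells (-0.72 ± 0.05 and -0.48 ± 0.05). TIMP2, another inhibitor, fell by 0.25 ± 0.03 in MEL-18 T334A, and in MEL-18 WT it stood at -0.03 ± 0.03 without a call. TIMP4 rose by 0.50 ± 0.08 in MEL-18 T334A and fell by 0.50 ± 0.09 in MEL-18 WT, and between the MEL-18 groups it differed by 0.99 ± 0.08 (adjusted p = 2.10e-10). Cathepsin B, CTSB, stood at 206.7 ± 10.4 CPM in MEL-18 T334A libraries, 152.0 ± 1.14 CPM in MEL-18 WT libraries and 179.2 ± 1.35 CPM in vector cells.

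**Figure D5:**
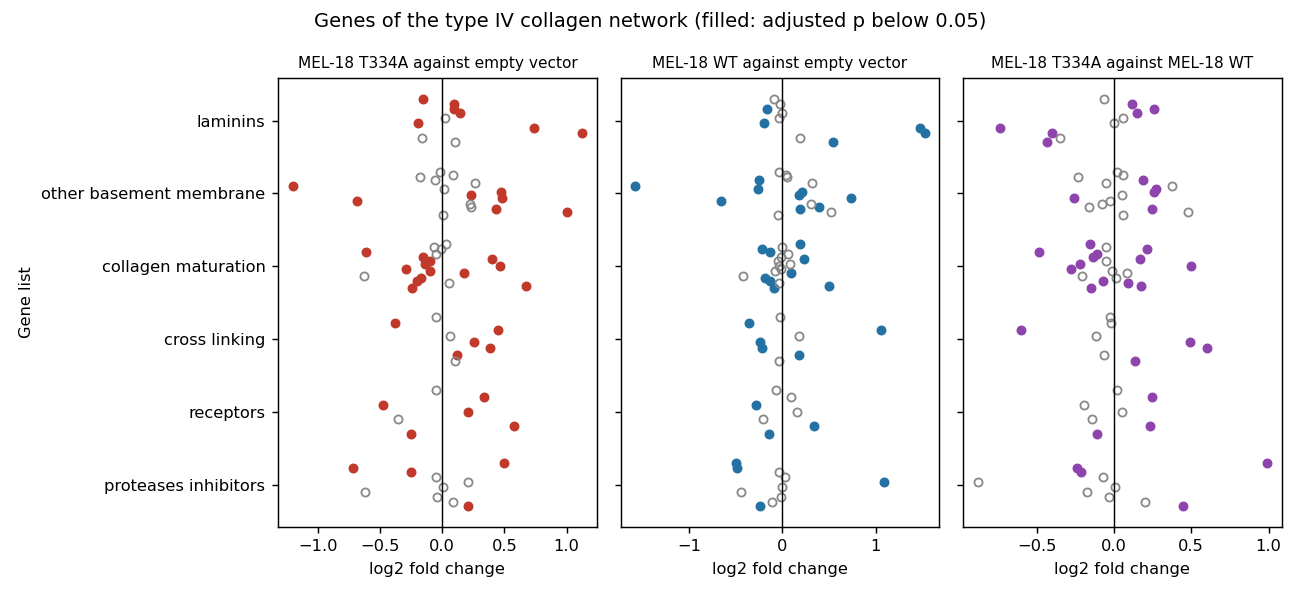
Log2 fold change (horizontal axes) of the 70 tested network genes by list (vertical axis) in the 3 comparisons; filled points had an edgeR adjusted p below 0.05. Rises and falls were mixed in each list, with 23 higher and 18 lower in MEL-18 T334A against the vector. Of all tested genes 23.4% were called higher and 22.5% lower there.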

How the data were processed

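RNA was measured in 9 poly(A)-selected TruSeq stranded mRNA libraries of MDA-MB-231, per the labels' protocols. The deposited values are raw read counts per gene symbol, and the tools named for them are STAR 2.5.3a, featureCounts of Subread 1.5.3, CASAVA 1.8 and the build hg19, per the submitters' processing notes. The sources used here do not give the annotation, strand setting or treatment of multi-mapping reads. None of the windows of 50 bases in the members' principal GENCODE 29 transcripts occurred in a transcript of another gene. Only exact matches on the transcript strand were searched, and other isoforms of the members and reads with mismatches were not checked.

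Genes passing filterByExpr (14738 of 26364) were scaled by TMM (factors 0.979 to 1.02) and tested with edgeR 4.0.16 by its quasi-likelihood test, two-sided, on all 9 libraries, with Benjamini-Hochberg adjustment over all tested genes and calls below 0.05. CPM are over TMM-scaled sizes. Each SE was taken as |log2 fold change| divided by sqrt(F). Count ratios of MEL-18 WT to the vector have exact 95% binomial intervals on summed counts, which cover counting error only. Replicate pairs differed by 1.52 to 4.17 chi-square per degree of freedom, more than sampling noise. MEL-18 T334A pairs gave 2.55 to 4.17, vector pairs 1.77 to 2.89 and MEL-18 WT pairs 1.52 to 2.15. The replicates are described as biological, and p-values reflect only the spread among these cultures.

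The members and lists were chosen with earlier results of these data known. The levels of 1 further marker list are not reported here. Named network genes came from the 3 called genes per list and comparison with the largest change and a mean of at least 2 CPM, and most are given for both comparisons with the vector. Neighbours were taken in the order of RefSeq genes (GRCh38.p14), to which 14437 tested genes were matched. Alternatives were DESeq2 1.42.0, RLE factors, library totals, no filter, a filter of 1 CPM in 3 libraries, a replicate block, the compared groups alone, limma 3.58.1 voom and each library left out.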

Additional observations from a re-analysis of the deposited data

How the results depend on the processing

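Under 14 alternatives, the number of type IV collagen genes called in MEL-18 WT against the vector was 2 to 3. COL4A3 and COL4A6 fell under the filter of 1 CPM in 3 libraries and gave no value there. COL4A5 ranged from -2.005 to -1.87 in MEL-18 T334A against the vector. All genes called ranged from 5466 (DESeq2) to 6857, from 3137 (DESeq2) to 4748 and from 4656 (DESeq2) to 6315 in MEL-18 T334A against the vector, MEL-18 WT against the vector and MEL-18 T334A against MEL-18 WT, and network genes called from 33 to 42, 28 to 38 and 31 to 37. In MEL-18 WT against the vector, COL4A3 and COL4A6, which were not called, changed sign without MEL-18 WT replicate 1 (-0.0443 and -0.0148 on the log2 scale), and with 1 library left out at a time they ranged from -0.0443 to 0.36 and from -0.0148 to 0.36. The log2 differences of COL4A2/COL4A1 and COL4A6/COL4A5 in MEL-18 WT against the vector ranged from -0.0247 to 0.0194 and from -0.173 to 0.228 with 1 library left out, so their sign is not fixed; that of COL4A4/COL4A3 ranged from 0.513 to 0.769. The cause was not tested. The replicate numbers of the labels did not pair the libraries (correlations of same-numbered deviations -0.0791 to 0.0137); with the replicate block 6496, 3963 and 5757 genes were called, the calls of the 6 collagen genes in MEL-18 WT against the vector did not change, and no statement rests on it. Rare COL4A3 and COL4A6 counts limit what could be seen of them.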
